A study of Mus musculus with 36 samples.

Results

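The comparison set Shank3(deltaC/+) mice against WT littermates 1 h after a forced swim, in ribosome-bound RNA of pyramidal neurons of the cortex. Its members were chosen by the labels: all 5 Shank3 libraries and all 6 WT libraries at that time, 11 of the 36 libraries of the series and all of cohort 1. The Shank3 mice had 1 mutated copy, Shank3(deltaC/+), and their WT littermates were Shank3(+/+). Mice of both genotypes carried the tagged ribosomal protein, HA-Rpl22(f/+), and the driver, Camk2a-Cre(+/-), on the strain background C57BL6JL, although the extraction text writes the tagged allele as f/f. Both had swum in water at 25 °C, for 5 min in one field of the labels and for 6 min in another. Age, sex and the tie between a library and an animal are not given in the sources used here. The other libraries were naive mice of cohort 1 (3 Shank3, 3 WT), naive mice of cohort 2 (4 Shank3, 4 WT) and mice 4 h after the swim in cohort 2 (6 Shank3, 5 WT).

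Shank3 is a scaffold of the postsynaptic density at excitatory synapses, where it links glutamate receptors, through partners such as Homer and Dlgap proteins, to the actin cytoskeleton of the spine. Loss of 1 copy is associated with a neurodevelopmental syndrome in people. A swim is a brief stressor that raises corticosterone and neuronal activity, and activity induces immediate early genes such as Fos, Egr1 and Arc within about an hour. In RiboTag mice Cre switches on an HA-tagged ribosomal protein Rpl22, here under Camk2a, a promoter of forebrain excitatory neurons, and ribosomes are pulled down with their RNA through the tag. A change in such RNA can come from transcript abundance or from the share of a transcript on ribosomes, and from fewer cells or less RNA per cell, which cannot be told apart here.

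The 11 libraries held 1.70 ± 0.343 M counts in Shank3 (M, 1000000 counts) (SD, n = 5) and 1.45 ± 0.358 M counts in WT (SD, n = 6; exact two-sided permutation p = 0.2511). Pyramidal and layer markers summed to 1660 to 2260 counts per 1000000 (CPM) in Shank3 libraries and 1620 to 2340 CPM in WT libraries. Astrocyte markers summed to 54.2 to 83.5 CPM in Shank3 and 47.8 to 94.1 CPM in WT, and oligodendrocyte markers summed to 89.1 to 115 CPM in Shank3 and 83.6 to 118 CPM in WT. Microglia markers were higher, at 406 to 669 CPM in Shank3 and 403 to 865 CPM in WT. Interneuron markers summed to 78.5 to 161 CPM in Shank3 and 77.1 to 191 CPM in WT. Striatal neuron markers summed to 145 to 203 CPM in Shank3 and 118 to 333 CPM in WT. Of the blood markers, Hba-a1, Hba-a2, Hbb-bs and Hbb-bt were at 0 in all 11 libraries, as were Cldn5, Ly6c1, Vtn and Acta2 of the endothelial and mural list. The ribosomal protein gene Rpl24 and the mitochondrial rows mt-Nd4l and mt-Atp8 were also at 0 in all 11. A row at 0 therefore does not show that its RNA was absent. Most counts lay on rows whose exons have an exon of another gene on the opposite strand (80.038% of the counts, 9087 rows), and antisense rows paired with a coding row held 25.421%. The pair share, which is the coding rows' percent of all counts in these antisense and coding pairs, was 14 ± 1.81% in Shank3 (n = 5) and 14.4 ± 2.08% in WT (n = 6; exact two-sided permutation p = 0.7446). It was highest in WT replicates 2 and 4 (16.99% and 16.26%) and Shank3 replicate 3 (16.79%), and lowest in WT replicate 1 (11.45%). The library kit keeps strand, and the strand setting of the counting is not given in the sources used here. If the counting used the opposite setting, each row would hold reads of the other strand at its place. The identity of every row, also of the 38139 rows with no gene opposite (15.799% of the counts), therefore depends on that setting, which was not tested, and gene names stand for rows as the files name them.

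No gene passed the threshold. Of 11341 genes tested with edgeR's quasi-likelihood test, 0 (0.0%) had a Benjamini-Hochberg adjusted p under 0.05, and the smallest adjusted p was 1.0. DESeq2 and limma voom also called 0. At an unadjusted p under 0.05 there were 205 genes (1.81%), 108 higher in Shank3 (0.952%) and 97 lower (0.855%), which is below the 5% that uniform p-values would give. DESeq2 gave 189 such genes and limma 237. Leaving out Shank3 replicate 3 raised this count to 321, 119 higher and 202 lower, still with 0 past the threshold. A log2 fold change of at least 1 in size was fitted for 78 genes (0.688%), and 5% of genes lay below -0.487 and 5% above 0.406.

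These data had a limited resolution. The median standard error (SE) of a log2 fold change was 0.272. The 95% interval excluded both a doubling and a halving for 8662 genes (76.4%), and a 1.5-fold change in either direction for 3501 (30.9%). For some genes, such as Braf (0.06 ± 0.175, edgeR unadjusted p = 0.961), the p was larger than the SE implies. Intervals of such genes are narrower than the test allows, so these counts may be too high. Smaller effects, or larger ones in the remaining genes, were not excluded by these intervals. The common biological coefficient of variation was 24.15% in this fit and 13.25% with the pair share as a covariate, so resolution also depended on the model. In Shank3 libraries 6134 genes (54.1%) had a fold change below 0 and 5207 (45.9%) above 0, with a median of -0.022.

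**Figure D1:**
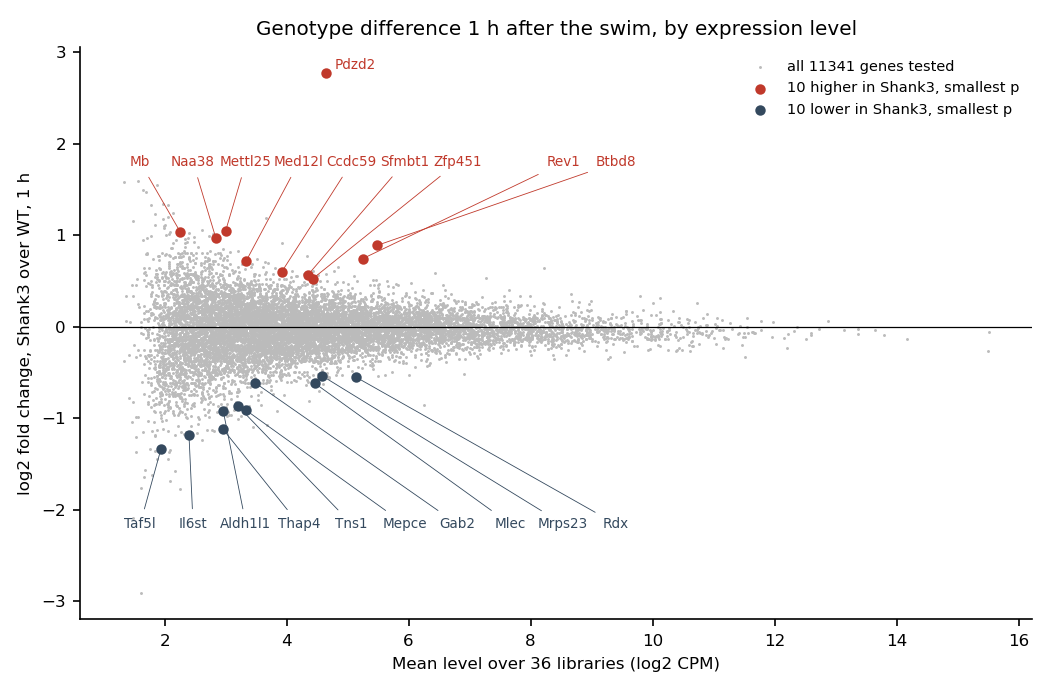
The vertical axis is the 1 h log2 fold change, Shank3 over WT, and the horizontal axis the mean log2 CPM over all 36 libraries, with 1 point per gene tested (11341). Red and dark points are the 10 genes higher and the 10 lower in Shank3 with the smallest p, and Pdzd2, at 2.77, stands far above the rest and rests on 1 library.

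Single genes were named by rank alone, the 10 of smallest p in each direction, and none of them passed the threshold (edgeR adjusted p = 1.0 for each). Sfmbt1, which encodes an MBT-repeat protein related to Polycomb group proteins (mm10, chromosome 14, 30714849 to 30822721, plus strand), was the only one of the 20 whose groups did not overlap. It had 26.8, 24.1, 22.5, 24.4 and 24.4 CPM in Shank3 libraries, against 11.3, 20.6, 12.6, 15.6, 17.2 and 19.4 CPM in WT libraries. Every Shank3 library lay above every WT library, with a log2 fold change of 0.57 ± 0.177 (SE, unadjusted p = 0.00263). Over all genes tested, 10 (0.0882%) lay wholly above and 11 (0.097%) wholly below in this way. Mphosph8, a reader of methylated histone H3 that acts with the HUSH silencing complex, was another gene wholly above and ran from 53.5 to 63.4 CPM in Shank3 and from 33.2 to 50.9 CPM in WT. It falls outside the naming rule and was chosen after its values were seen, as was Ccni, a cyclin family gene, with 41.1 to 50.5 CPM in Shank3 and 51.1 to 62.9 CPM in WT.

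Btbd8, a BTB domain gene (chromosome 5, 107437997 to 107511207, plus strand), had the second smallest p. Its levels were 15.6, 15.7, 31.2, 39.2 and 35.2 CPM in Shank3, against 29.0, 13.0, 7.41, 12.6, 14.9 and 16 CPM in WT. Shank3 replicates 3, 4 and 5 stood above all WT libraries while replicates 1 and 2 lay within their range, and the log2 fold change was 0.89 ± 0.248. Rev1, a translesion DNA polymerase, was highest in the same 3 Shank3 libraries. It had 25.6, 33.3, 59.7, 55.8 and 48.2 CPM in Shank3 and 29.0, 25.1, 23.7, 26.7, 33.2 and 23.6 CPM in WT, a log2 fold change of 0.74 ± 0.239, and of the Shank3 libraries only replicate 1 lay within the WT range. Both genes have an annotated gene on the opposite strand.

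Pdzd2, a multi-PDZ domain gene, had the largest fitted fold change of the 20, 2.77 ± 0.747, and it rested on 1 library. Shank3 replicate 3 had 293 CPM, and the other Shank3 libraries had 11.8, 8.48, 7.85 and 9.75 CPM, against 2.52 to 17.5 CPM in WT. Without that library the log2 fold change was -0.06. The remaining genes higher in Shank3 by rank were Mb (myoglobin, an oxygen-binding protein), Mettl25 (a predicted methyltransferase), Zfp451 (a zinc finger protein and SUMO ligase), Naa38 (a subunit of the NatC N-terminal acetyltransferase), Ccdc59 (a coiled-coil protein) and Med12l (a Mediator complex subunit). Their log2 fold changes ran from 0.53 for Zfp451 to 1.05 for Mettl25. Zfp451 was the only one of these 6 with no gene on the opposite strand, and it had 20.0 to 30.3 CPM in Shank3 and 12.6 to 21.8 CPM in WT.

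Rdx encodes radixin, an ERM protein that links the actin cytoskeleton to the plasma membrane (chromosome 9, 52047173 to 52088735, plus strand, no gene opposite). It had the smallest p among genes lower in Shank3. Its levels were 34.9, 28, 31.7, 21.8 and 39.0 CPM in Shank3, against 52.9, 43.5, 49.6, 53.5, 36.7 and 39.6 CPM in WT. Only Shank3 replicate 5 reached into the WT range, above WT replicate 5, and the log2 fold change was -0.55 ± 0.164 (unadjusted p = 0.0017). Leaving out each library in turn gave -0.65 to -0.46.

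Mlec, malectin, a glycan-binding protein of the endoplasmic reticulum, also overlapped in little of its range. It had 11.2, 15.7, 12.9, 18.3 and 12.5 CPM in Shank3 and 20.1, 23.8, 22.2, 23.7, 17.2 and 19.4 CPM in WT, with a log2 fold change of -0.62 ± 0.220. Shank3 replicate 4 alone lay above the lowest WT library. The others ranked lower were Thap4 (a THAP domain protein), Tns1 (tensin, a focal adhesion protein), Mepce (the capping enzyme of 7SK RNA), Mrps23 (a mitochondrial ribosomal protein), Aldh1l1 (a folate enzyme and astrocyte marker), Taf5l (a subunit of histone acetyltransferase complexes), Il6st (the gp130 receptor subunit for interleukin 6 family cytokines) and Gab2 (an adaptor of receptor signalling). Their log2 fold changes ran from -1.34 for Taf5l, with 0.0 to 2.62 CPM in Shank3 and 2.29 to 6.67 CPM in WT, to -0.54 for Mrps23. Aldh1l1 had 1.74 to 7.81 CPM in Shank3 and 5.55 to 10.3 CPM in WT. Of the 10 astrocyte markers 4 could be tested, 1 had a fold change above 0 and 3 below 0, and the part of astrocyte RNA in the Aldh1l1 value was not tested.

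**Figure D2:**
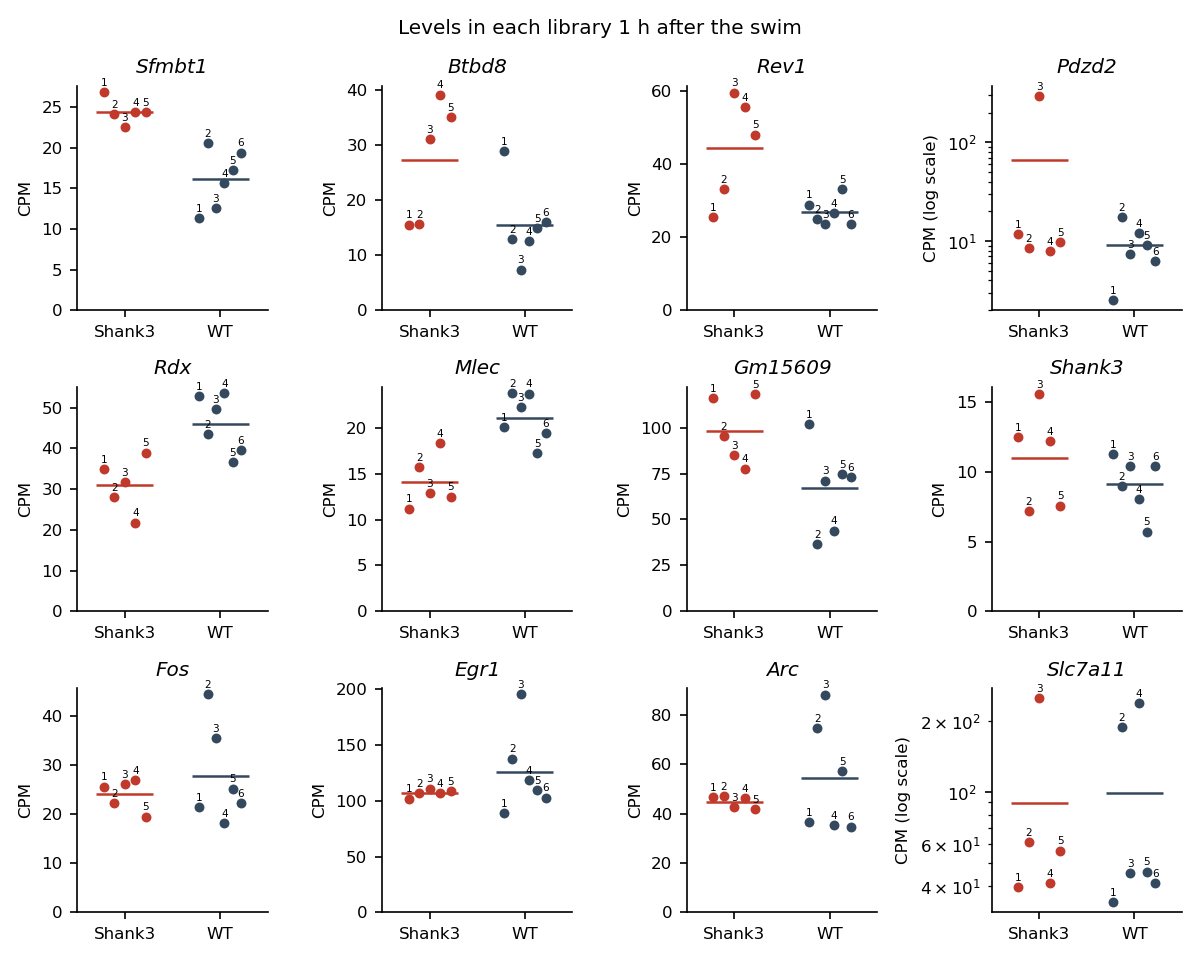
Each point is the level of a gene in 1 library in CPM, numbered by replicate, for 5 Shank3 libraries (left) and 6 WT libraries (right), and the bar is the mean; the axes of Pdzd2 and Slc7a11 are logarithmic. Sfmbt1 separates the genotypes, Shank3 replicate 3 alone lifts Pdzd2, and Egr1 and Arc lie within 102 to 111 CPM and 41.7 to 47.0 CPM in Shank3 but spread over 89.4 to 196 CPM and 34.7 to 88.1 CPM in WT.

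The direction of these 20 genes was set beside the same genotype difference in the comparisons that share no library with it. Of the 20, 7 had the same direction in naive mice of cohort 1, where 51.2% of all genes did. In naive mice of cohort 2 there were 15 (all genes, 55.6%), of which Il6st, Rev1 and Zfp451 had an unadjusted p under 0.05 (1.96% of all genes had such a p and the direction of their 1 h fold change). At 4 h there were 7 (all genes, 45.1%). Rdx and Aldh1l1 had the same direction in all of them, against 15.9% of all genes. The log2 fold changes of Rdx were -0.16 and -0.33 in naive mice of cohorts 1 and 2 and -0.19 at 4 h, none with an unadjusted p under 0.05. Sfmbt1 went the other way in each, at -0.21, -0.28 and -0.23.

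**Figure D3:**
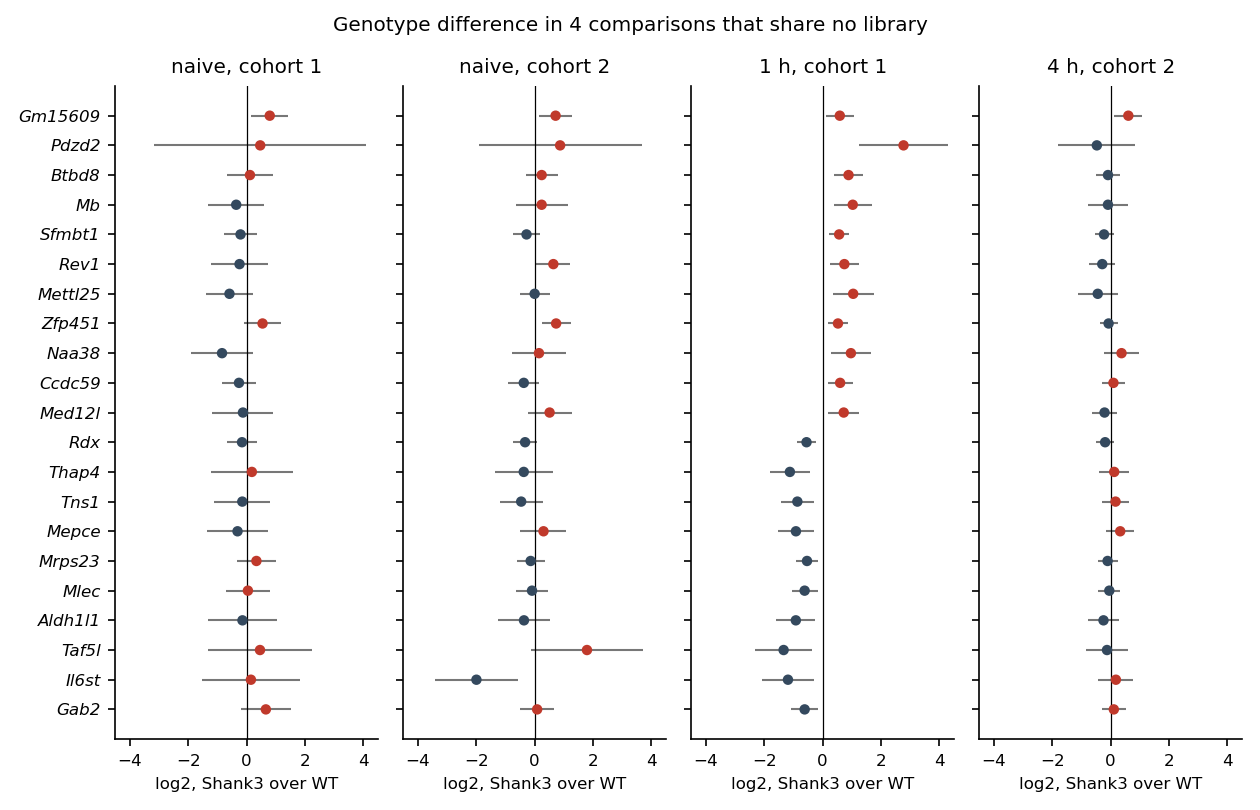
Points are log2 fold changes of Shank3 over WT with 95% intervals, red above 0 and dark otherwise, for Gm15609 and the 20 genes ranked at 1 h, in 4 comparisons that share no library. Gm15609 is above 0 in each, between 0.59 and 0.79, whereas most of the 20 lie near 0 outside the 1 h panel.

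The row of Shank3 itself does not check the labels, because it counts the whole gene and the part that the allele changes is not given in the sources used here. It had 20, 11, 34, 14 and 14 counts in Shank3 libraries, against 9, 20, 14, 16, 5 and 15 counts in WT libraries. Scaled, this was 12.5, 7.18, 15.6, 12.2 and 7.58 CPM in Shank3 and 11.3, 8.97, 10.4, 8.07, 5.73 and 10.4 CPM in WT. The groups overlapped, and the log2 fold change was 0.28 with a 95% interval of -0.32 to 0.88. Its paralogs Shank1 and Shank2, scaffolds of the same density, were at -0.06 (-0.52 to 0.40) and -0.09 (-0.52 to 0.33).

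Gm15609, a long noncoding RNA gene within Shank3, is annotated on the other strand (chromosome 15, 89520096 to 89523677, minus strand, inside Shank3 at 89499623 to 89560261, plus strand). Its transcript in GENCODE vM21 has 2 exons and 2960 bases. Over 271 bases, 89521103 to 89521373, it is complementary to exon 10 of Shank3, and reads from that stretch can be given to either gene unless strand is used. With the opposite strand setting the row of Gm15609 would hold reads of the Shank3 strand, and that of Shank3 reads of the Gm15609 strand, so the values below are those of the rows, not of an RNA known to be noncoding. The stretch is shown as the part where exons of both genes overlap, while the strand setting would affect the whole of both rows. It is printed 5′ to 3′ on the minus strand from the GENCODE vM21 transcripts (mm10, chr15:89521093-89521383), with the part opposite the Shank3 exon in capitals and 10 flanking bases on each side in lower case.
Gm15609: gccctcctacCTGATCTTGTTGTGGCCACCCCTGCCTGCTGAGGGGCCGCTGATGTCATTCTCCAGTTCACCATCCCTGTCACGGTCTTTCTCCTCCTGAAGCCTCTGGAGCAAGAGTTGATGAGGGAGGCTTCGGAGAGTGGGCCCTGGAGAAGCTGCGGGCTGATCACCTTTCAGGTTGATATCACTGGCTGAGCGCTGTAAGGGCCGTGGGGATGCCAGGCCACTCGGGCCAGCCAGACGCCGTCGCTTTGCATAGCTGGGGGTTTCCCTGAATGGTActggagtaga

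Gm15609 had 116, 95.2, 85, 77.6 and 118 CPM in Shank3 libraries, against 102, 36.8, 71.1, 43.9, 74.5 and 72.9 CPM in WT libraries. All 5 Shank3 libraries lay above every WT library other than WT replicate 1, which lay within the Shank3 range. The log2 fold change was 0.59 ± 0.234 (95% interval 0.12 to 1.06, unadjusted p = 0.016, edgeR adjusted p = 1.0). In the comparisons that share no library it was 0.79 ± 0.318 in naive mice of cohort 1, 0.72 ± 0.278 in naive mice of cohort 2 and 0.61 ± 0.236 at 4 h, each with an adjusted p of 1.0. The difference between 1 h and naive mice of cohort 1 was -0.20 (unadjusted p = 0.609). With the pair share as a covariate the fold change at 1 h was 0.58 and its unadjusted p 2.32e-05, the smallest of all genes in that fit, with an adjusted p of 0.263. Of the 165 genes tested within 10 Mb of Shank3, 2 (1.21%) had an unadjusted p under 0.05 at 1 h, beside 1.81% of all genes tested. They were Gm15609 itself and 1 gene lower in Shank3.

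The partners of Shank3 showed no shift as a group. Of 43 tested members of the list of Shank partners and postsynaptic scaffolds, 19 were above 0, 24 below 0 and 0 had an unadjusted p under 0.05, and the median log2 fold change was -0.044 (all genes, -0.022). Counts of members above or below 0, here and in later lists, stand beside 45.9% and 54.1% of all genes tested. Homer1, which joins Shank proteins to metabotropic glutamate receptors, was at 0.05 (-0.37 to 0.47). Dlgap1, which joins Shank to Dlg4, was at -0.14 (-0.43 to 0.15). Dlg4 (PSD-95) had 87.2 to 165 CPM in Shank3 and 93.1 to 186 CPM in WT, a log2 fold change of -0.26 (-0.75 to 0.22). Nlgn3, a postsynaptic adhesion molecule, was at -0.44 ± 0.288.

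Glutamate receptors and their auxiliary subunits had the highest list median, 0.133, with 16 of 24 tested members above 0 and 0 at an unadjusted p under 0.05. Shisa9, an AMPA receptor auxiliary protein, had 10.6, 5.87, 5.05, 5.23 and 9.75 CPM in Shank3 and 3.78, 8.97, 1.48, 3.53, 4.58 and 4.17 CPM in WT, a log2 fold change of 0.64 ± 0.340. Cacng3, another AMPA receptor auxiliary subunit, was at -1.07 ± 0.577 with 1.87 to 4.87 CPM in Shank3 and 1.26 to 8.07 CPM in WT. The pore-forming subunits were closer to 0, at 0.17 for Grin1, 0.06 for Grin2b and 0.08 for Gria1. The 95% intervals of these 3 stayed within -0.34 and 0.67. GABA receptors and inhibitory scaffolds had a median of 0.062, with 8 of 15 above 0. Gabrb2, a subunit of the GABA-A receptor, was at -0.26 ± 0.170.

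On the actin side of the synapse, 23 of 34 regulators of spine actin were below 0 (all genes, 54.1%) and the median was -0.076. The Arp2/3 complex subunits Arpc3 and Arpc1a, which nucleate branched actin, had the smallest p, at -0.48 ± 0.265 and -0.55 ± 0.369. The small GTPase Rac1 was at 0.09 (-0.25 to 0.44), its effector kinase Pak1 at -0.02 (-0.36 to 0.33) and the actin-severing protein Cfl1 at -0.18 (-0.78 to 0.43). Calcium-calmodulin kinases and calcineurin had 17 of 24 members below 0 and a median of -0.052. Camk2a, the abundant synaptic kinase, had 782, 943, 1170, 905 and 921 CPM in Shank3 and 694, 1090, 1190, 1140, 816 and 1050 CPM in WT. Its interval of -0.47 to 0.32 excluded a 1.5-fold change in either direction. Presynaptic vesicle release genes were below 0 in 31 of 42 cases with a median of -0.092. Syn3, a synapsin of synaptic vesicles, was the exception at an unadjusted p under 0.05, at 0.49 ± 0.212. Voltage-gated ion channels had 27 of 45 below 0 and a median of -0.043, with the calcium-activated potassium channel Kcnma1 at 0.31 ± 0.165.

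Immediate early genes at 1 h did not differ between genotypes beyond the spread between libraries. Of 19 rapid immediate early genes tested, 12 were below 0, 7 above 0 and 0 had an unadjusted p under 0.05, with a median of -0.088. Fos, the AP-1 subunit, had 25.6, 22.2, 26.2, 27.0 and 19.5 CPM in Shank3 and 21.4, 44.4, 35.5, 18.2, 25.2 and 22.2 CPM in WT. Egr1, a zinc finger transcription factor, had 102, 107, 111, 107 and 109 CPM in Shank3 and 89.4, 138, 196, 119, 110 and 103 CPM in WT. Arc, which regulates AMPA receptor endocytosis, had 46.7, 47.0, 42.7, 46.2 and 41.7 CPM in Shank3 and 36.5, 74.4, 88.1, 35.3, 57.3 and 34.7 CPM in WT. In each case WT replicates 2 and 3 were the highest, and the lowest WT libraries lay below every Shank3 library.

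The log2 fold changes were -0.23 for Fos (95% interval -0.79 to 0.32), -0.23 for Egr1 (-0.71 to 0.24) and -0.29 for Arc (-1.11 to 0.53). They were -0.02 for Fos without WT replicate 2, and -0.06 for Egr1 and -0.09 for Arc without WT replicate 3. The orphan nuclear receptor Nr4a1 was at -0.42 (-1.06 to 0.22), and Klf6, a zinc finger factor, at 0.28 ± 0.243. Npas4, an activity-dependent factor, was not tested because its counts were too low, with 23 counts in all in Shank3 and 17 in WT. Among delayed activity-regulated genes 22 of 27 were below 0 and 0 had an unadjusted p under 0.05, yet the median was only -0.054. Vgf, a secreted neuropeptide precursor, was at -0.23 ± 0.165, Dusp5, a phosphatase of ERK, at -0.48 ± 0.352 (0.03 with both strands summed), the growth factor Bdnf at -0.03 (-0.48 to 0.42) and the pentraxin Nptx2, which clusters AMPA receptors, at -0.01 (-1.01 to 0.99).

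Stress pathways also stayed near the median of all genes. Glucocorticoid-responsive genes had 7 of 13 above 0 and a median of 0.063. Fkbp5, a chaperone of the glucocorticoid receptor that the hormone induces, had 13.3 to 29.2 CPM in Shank3 and 16.7 to 31.4 CPM in WT and was at -0.06 (-0.55 to 0.43). Sgk1, a hormone-induced kinase, was at 0.31 (-0.45 to 1.08; 0.09 without Shank3 replicate 3), Tsc22d3 at 0.32 ± 0.319 and Errfi1 at 0.29 ± 0.239. Cytosolic heat shock chaperones had 8 of 18 above 0 and a median of -0.004, with the inducible chaperone Hspa1a at -0.38 ± 0.343 and the co-chaperone Ahsa1 at -0.19 ± 0.168. Endoplasmic reticulum stress genes had 9 of 16 above 0 and a median of 0.017.

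Manf, a secreted factor of that stress response, was the 1 member at an unadjusted p under 0.05. It had 23.1, 32.0, 21.1, 22.7 and 36.3 CPM in Shank3 and 3.78, 19.3, 28.9, 23.7, 16 and 13.9 CPM in WT, a log2 fold change of 0.56 ± 0.240. Calr, the chaperone calreticulin, was at -0.31 ± 0.202. Clock genes had 8 of 18 above 0 and a median of -0.071, with Tef at -0.42 ± 0.314 and Npas2 at 0.61 ± 0.428 (0.25 without Shank3 replicate 3). Histone-modifying enzymes and related readers had 17 of 30 above 0 and a median of 0.023, and the deacetylase Hdac2 was at 0.00 (-0.38 to 0.38).

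Slc7a11, the cystine and glutamate exchanger, varied more between libraries of a genotype than between genotypes. It had 39.3, 61.3, 249, 41.0 and 56.3 CPM in Shank3 and 34.0, 188, 45.2, 238, 45.8 and 41.0 CPM in WT. The high libraries were Shank3 replicate 3 and WT replicates 2 and 4, the 3 with the highest pair share, and the others lay between 34.0 and 61.3 CPM. The log2 fold change was -0.17 (-1.07 to 0.74). At 4 h it was 4.91 (edgeR adjusted p = 1.47e-06, 1 of 11341 genes past the threshold, 0.00882%), and the genotype difference at 1 h minus that at 4 h was -5.07 (adjusted p = 0.000171), 1 of 11341 genes past the threshold in that test (0.00882%). Time and cohort cannot be told apart in it. Of the other cystine and glutathione genes, Srxn1, which reduces peroxiredoxins, was at 0.42 ± 0.220 and Txnrd1, a thioredoxin reductase, at 0.35 ± 0.237, and the list had 8 of 15 below 0 and a median of -0.078.

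Nuclear genes of oxidative phosphorylation lay mostly below 0, without single genes past the threshold. The counts were 32 of 37 for complex I (median log2 fold change -0.214), 13 of 14 for complexes II and III (-0.203), 10 of 11 for complex IV (-0.405) and 14 of 16 for complex V (-0.136), beside 54.1% of all genes tested. Ndufa3, a complex I subunit, was the 1 member at an unadjusted p under 0.05, with 4.36, 3.26, 5.51, 2.62 and 3.79 CPM in Shank3 and 7.55, 4.48, 8.89, 6.56, 8.02 and 9.72 CPM in WT. Its log2 fold change was -0.85 ± 0.328, and its levels were low in both groups. Cox6a1 and Cox7c of complex IV were at -0.70 ± 0.459 and -0.61 ± 0.429 (Cox7c at -0.22 without WT replicate 4), Uqcr10 of complex III at -0.64 ± 0.362, and Atp5j2 of the ATP synthase at -0.60 ± 0.415. Glycolysis genes were below 0 in 16 of 17 cases (median -0.128), with the enzymes Tpi1 at -0.31 ± 0.241 and Eno1 at -0.34 ± 0.285. Cytosolic ribosomal protein genes were below 0 in 59 of 74 cases (median -0.170), with Rpl27a at -0.45 ± 0.226. Rpl22, the gene whose product carries the tag, was at -0.21 (-0.87 to 0.45).

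In other mice the same lists had other medians, and the differences between comparisons were not tested. In naive mice of cohort 1, complex I, complexes II and III, complex IV and complex V had medians of 0.072, 0.102, 0.157 and 0.211, and ribosomal protein and glycolysis genes 0.142 and 0.205 (all genes, 0.029). At 4 h the same lists had medians between 0.052 and 0.227 (all genes, 0.00465). In naive mice of cohort 2 complexes II and III and complex IV had 0.045 and 0.052, while complex I (-0.041), complex V (-0.009), ribosomal protein (-0.037) and glycolysis genes (-0.038) were below 0, as at 1 h (all genes, 0.0043).

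**Figure D4:**
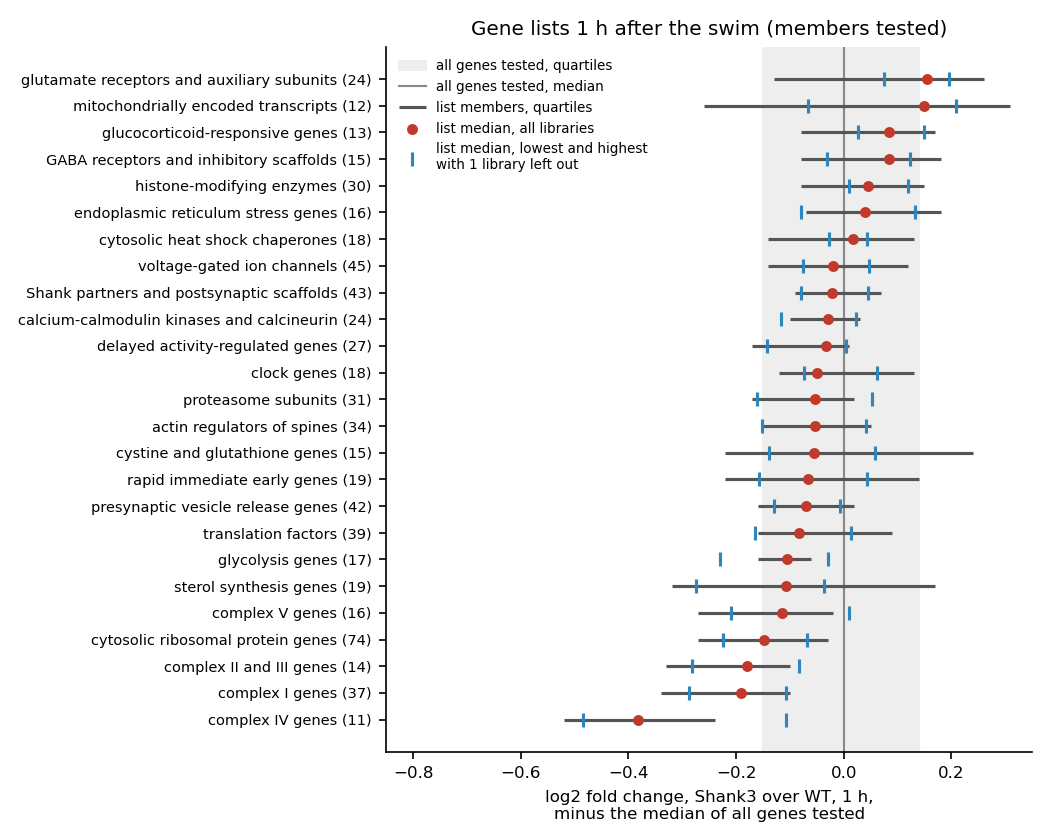
Red points are list medians of the 1 h log2 fold change, Shank3 over WT, after the median of all genes tested was subtracted, with the number of members tested in brackets; dark lines span the quartiles of the members, blue ticks mark the lowest and highest median with 1 library left out, and the grey band spans the quartiles of all genes. Complex IV lies lowest, and its ticks run from -0.484 to -0.108.

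Within the groups the levels of these lists followed single libraries. The mean centred log2 level of complex IV genes was -0.349, 0.112, 0.370, -0.384 and -0.252 in Shank3 libraries, against -1.143, 0.782, 0.072, 0.590, 0.133 and 0.069 in WT libraries. Complex I genes had -0.229, -0.161, 0.264, -0.034 and -0.212 in Shank3 and -0.738, 0.547, 0.195, 0.358, 0.081 and -0.070 in WT. The high libraries in both lists were WT replicates 2 and 4 and Shank3 replicate 3, and the low one WT replicate 1, the libraries with the highest and lowest pair share. Relative to all genes, the median of complex IV was -0.383 with all libraries, -0.108 without WT replicate 2, -0.195 without WT replicate 4 and -0.484 without WT replicate 1. With the pair share as a covariate it was -0.238, and that of complex I -0.171 in place of -0.191. Ribosomal protein genes were at -0.084 in place of -0.148 and complex V at -0.066 in place of -0.114. Complex V was at 0.009 without WT replicate 2 and at -0.036 both with the 1 h libraries only and in cohort 1 only. In the fit with the pair share 479 genes had an unadjusted p under 0.05 (4.22%), 179 higher and 300 lower in Shank3, and 0 passed the threshold.

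**Figure D5:**
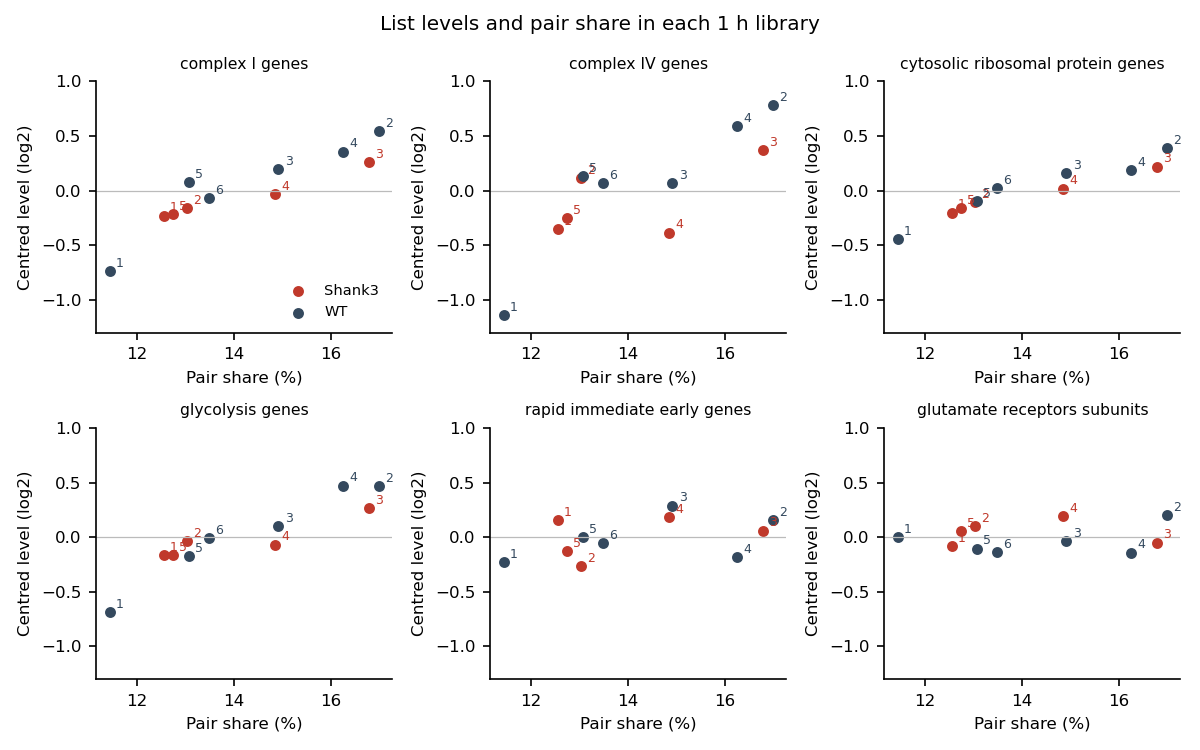
Each point is 1 of the 11 libraries at 1 h, numbered by replicate, with the pair share in percent on the horizontal axis and the mean centred log2 level of a list on the vertical axis. Complex I, complex IV, ribosomal protein and glycolysis levels are highest where the pair share is highest and lowest in WT replicate 1. Between these ends complex IV does not follow the pair share: Shank3 replicate 4 (14.86%) is at -0.384 and WT replicate 5 (13.07%) at 0.133. Immediate early genes and glutamate receptors lie between -0.265 and 0.289 at every pair share.

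Mitochondrially encoded rows carried few counts, 0.01634% to 0.05477% of a library, and their levels are uncertain for the reason of strand given above. mt-Nd6, a complex I subunit gene on the other strand from most genes of that genome, had 47.3 to 92.9 CPM in Shank3 and 47.0 to 113 CPM in WT, and was at -0.28 ± 0.200. Of 12 tested, 7 were above 0 with a median of 0.127. Relative to all genes this median was 0.150, but -0.161 among the 7 rows tested with the 1 h libraries only, -0.254 with the replicate block, -0.159 with a mean of at least 10 counts, -0.017 in cohort 1 only and -0.066 without Shank3 replicate 3. mt-Rnr1, a ribosomal RNA, was at 1.19 ± 0.495 (unadjusted p = 0.0211) with 4.99, 9.13, 8.27, 5.23 and 7.04 CPM in Shank3 and 2.52, 4.48, 5.18, 3.03, 0.0 and 1.39 CPM in WT. Only WT replicate 3 reached the Shank3 range.

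Proteasome subunits had 23 of 31 below 0 (median -0.075), with Psmb6 at -0.51 ± 0.258 and Psmd8 at -0.56 ± 0.372. Translation factors had 25 of 39 below 0 (median -0.105), although Eif5b, which joins the ribosomal subunits, and Eif4g1, the scaffold of the cap-binding complex, were at 0.34 ± 0.187 and 0.30 ± 0.168. Sterol synthesis genes had 12 of 19 below 0 (median -0.130), with Insig1, which retains the sterol sensor in the endoplasmic reticulum, at -0.53 ± 0.287 and the cyclase Lss at -0.82 ± 0.472, although Lss was at 0.19 when both strands were summed. Relative to all genes the sterol median was -0.108, but 0.029 with both strands summed, 0.080 among the 10 members tested with the 1 h libraries only, 0.060 with the replicate block, 0.077 in cohort 1 only and 0.081 with a mean of at least 10 counts. No member of these 3 lists had an unadjusted p under 0.05.

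The 10 antisense rows of highest total count paired with a coding row did not separate the genotypes. Gm14703, opposite the synaptic vesicle gene Syp, had 13200, 13400, 8430, 11600 and 17200 CPM in Shank3 and 22300, 10400, 12300, 7670, 14200 and 12000 CPM in WT, a log2 fold change of -0.04 ± 0.277. It held 95.9% of the counts of the pair, and the sum of both rows was also at -0.04. Over the 10 antisense rows the fold changes ran from -0.23 for Gm12999, opposite Atpif1, to 0.06 for Chn1os1, opposite Chn1. The coding partners ran from -0.30 for Tuba1b to 0.16 for Flywch1, and Kremen2 was not tested. In 9 of these rows WT replicate 1 was the highest of the 11 libraries. When the counts of overlapping rows were summed, 0 of 10621 rows passed the threshold and 187 (1.76%) had an unadjusted p under 0.05.

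The genotype difference at 1 h was also tested against that in naive mice of the same cohort. Of 11341 genes 0 (0.0%) passed the threshold, and 468 (4.13%) had an unadjusted p under 0.05, 95 with a higher (0.838%) and 373 with a lower (3.29%) difference at 1 h. The naive groups of that cohort had 3 libraries each, and their own comparison gave 0 genes past the threshold and 548 (4.83%) at an unadjusted p under 0.05. Ncam2, a neural adhesion molecule, was at 3.73 in those naive mice (unadjusted p = 6.99e-05, edgeR adjusted p = 0.274) and at 0.25 (-0.23 to 0.73) at 1 h.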

How the data were processed

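Ribosome-bound RNA of mouse cortex was sequenced from stranded libraries as pairs of 100 bp, per the labels' protocols, with a stated 15 M reads each. What the authors deposited per library is a column of raw whole-number counts for 55470 gene identifiers (mm10). Salmon 1.4, StringTie 2.1.3, HISAT2 2.2.0, Trimmomatic 0.39, DESeq2 and FastQC are named in the submitters' processing notes, and which of them made the counts is not given in the sources used here. Replicates are libraries that the labels do not tie to named animals, so p-values measure the spread between these libraries, which may be technical in part. Between libraries of a group the chi-square over its degrees of freedom was at least 2.561, so none was taken as deposited more than once.

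The count model was that of edgeR 4.0.16, run in R 4.3.3 (TMM scaling, low-count filter, robust quasi-likelihood test), on all 36 libraries in 8 cells of genotype, treatment and cohort, with 28 residual degrees of freedom. The fit was also run on simulated counts, drawn independently for each gene, in which libraries differed in size and in added genotype changes only. That run cannot show how the fit performs where many genes of a library shift together. Fold changes are log2 values of Shank3 over WT, and the SE was derived as the size of the log2 fold change over the root of F. CPM are counts per 1000000 at TMM-scaled library size. P-values were adjusted by the Benjamini-Hochberg method over all 11341 tested genes, with a threshold of 0.05. List levels per library are means over members of centred log2 values of CPM plus 1. Rows were placed by GENCODE vM21 (55229 identifiers) and named by a table of symbols (55143), and rows without a symbol held 0.0412% of the counts. DESeq2 1.42.0 and limma 3.58.1, other scalings, filters, sample sets, strand treatments and each library left out were alternatives.

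The genes named were the 10 of smallest p in each direction whose mean log2 CPM reached 1 and whose name was not provisional, the 2 of smallest p in each of 25 pathway lists, a set of Shank, activity and stress genes taken whatever their values, and the 10 antisense rows of highest count with their partners. The 36 lists and these members were chosen with earlier results of these data known. A few genes that this rule names are not reported here.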

Additional observations from a re-analysis of the deposited data

Results flagged for a closer look

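Within each group of 5 or 6 libraries, a library was singled out where its gap to the nearest other was large against the range of the group (Dixon's criterion at 95%). This was examined in 286 sets of libraries and 17 were singled out, where about 1 in 20 is expected by chance. In Shank3, replicate 3 stood apart for Pdzd2 (293.0 CPM, others 7.85 to 11.8), Slc7a11 (249.0 CPM, others 39.3 to 61.3), Tpi1 (256.0 CPM, others 170.0 to 188.0), the clock list (0.448, others -0.174 to -0.01) and the calcium-calmodulin kinase list (0.231, others -0.105 to -0.042, both mean centred log2 levels). Shank3 replicate 4 stood apart for Kcnma1 (93.3 CPM, others 61.7 to 68.8) and replicate 2 for Rpl27a (11.1 CPM, others 18.3 to 21.2).

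In WT, replicate 1 stood apart for Ccdc59 (15.1 CPM, others 8.89 to 9.86), Flywch1 (25.2 CPM, others 48.4 to 56.5), Ncam2 (12.6 CPM, others 6.25 to 8.15), Uchl1os (11100.0 CPM, others 3790.0 to 6100.0) and the complex IV list (-1.143, others 0.069 to 0.782). WT replicate 3 stood apart for Grin2b (86.7 CPM, others 56.2 to 66.7) and Taf5l (6.67 CPM, others 2.29 to 3.59), replicate 2 for Atp5l (11.7 CPM, others 4.17 to 6.29) and replicate 6 for Shank1 (50.7 CPM, others 27.8 to 35.3). The share of rows of the ribosomal RNA type was 10.54% in WT replicate 5, others 0.5897% to 1.118%. The genotype difference of Slc7a11 at 1 h minus that at 4 h was -5.074 on the log2 scale, past the threshold in edgeR's test of the difference itself (adjusted p = 0.000171).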

How the results depend on the processing

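0 genes passed the threshold at 1 h under every alternative run except the fit with no low-count filter, which called 1 (Pdzd2, edgeR adjusted p = 1.4e-26) and found 3 genes in place of 1 for the difference from 4 h. Genes at an unadjusted p under 0.05 numbered 205, against 694 with no filter, 131 with a mean of at least 10 counts, 479 with the pair share as covariate, 119 among genes with no gene opposite, and 170 to 321 with 1 library left out. The glutamate receptor median, relative to all genes, was 0.155, and 0.277 among genes with no gene opposite; the other 299 of 300 list values moved by less than the SD between libraries, yet 16 of 25 list medians, relative to all genes, changed sign under another setting (9 lists) or with 1 library left out (15). The lists that changed sign in no such fit were complexes I, II and III, and IV, ribosomal proteins, glycolysis, presynaptic release, glutamate receptors, glucocorticoid-responsive genes and histone modifiers. Deviations of same-numbered libraries had correlations of 0.357, -0.042, 0.151, -0.007 and 0.021, and those of other library pairs ran from -0.477 to 0.486. The highest joined Shank3 replicate 3 and WT replicate 2, both of high pair share, so these values cannot show whether the numbers mark pairs. The numbers were not taken as pairs. With the replicate number as a block 147 genes had an unadjusted p under 0.05 and 0 passed the threshold.

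Of 1228 values of named genes under other settings, 18 changed sign; the cause was not tested. These log2 fold changes were -0.01 for Chn1, 0.02 for Chn1os3, 0.00 for Gm47512 and 0.05 for Shank1 with the replicate block. Summing both strands gave 0.03 for Dusp5, -0.06 for Flywch1, 0.01 for Hdac2, 0.19 for Lss and 0.05 for Ncald. With no filter Chn1os3 was 0.01, Hdac2 0.02 and Nptx2 0.00. Nptx2 was 0.00 in DESeq2, 0.08 with the pair share and 0.04 with no gene opposite, and Pak1 was 0.02 in limma, 0.02 with the pair share and 0.01 with no gene opposite.

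With 1 library left out, 24 named genes crossed 0, over these ranges: 9130221H12Rik -0.16 to 0.04, 9530082P21Rik -0.15 to 0.02, Atpif1 -0.24 to 0.01, Bdnf -0.15 to 0.05, Chn1 -0.06 to 0.07, Chn1os1 -0.01 to 0.21, Chn1os3 -0.13 to 0.11, Fkbp5 -0.21 to 0.1, Gm14703 -0.17 to 0.17, Gm28221 -0.06 to 0.14, Gm41396 -0.14 to 0.14, Gm47512 -0.14 to 0.09, Gria1 -0.02 to 0.29, Grin2b -0.02 to 0.17, Gsk3a -0.17 to 0.05, Hdac2 -0.06 to 0.08, Homer1 -0.07 to 0.17, Nptx2 -0.25 to 0.24, Pak1 -0.09 to 0.1, Pdzd2 -0.06 to 3.09, Rac1 -0.06 to 0.18, Shank1 -0.17 to 0.09, Slc7a11 -1.03 to 0.3 and Uchl1os -0.25 to 0.13. Of the other 90 named genes 43 moved by over 1.5 times with a library left out, such as Npas2 (0.25 to 0.97), Sgk1 (0.09 to 0.48), Cox7c (-0.78 to -0.22) and Fos (-0.35 to -0.02). Shank3 minus WT ran from -1.06 to 0.162 percentage points for the pair share, -0.155 to 0.0281 for the glial level and -0.895 to 1.62 percentage points for the ribosomal RNA share.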

Other observations

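Levels varied more between WT than between Shank3 libraries at 1 h, a description chosen after the values were seen and given without a test. The SD of log2 levels was larger in WT for 71.7% of the 11341 genes tested, with a median ratio of WT over Shank3 of 1.33, and for 74.0% of the 8485 genes whose mean log2 CPM was 3 or more. Among these 8485 genes the ratio was 8.85 for Egr1 and 7.45 for Arc. The SDs were 0.0443 in Shank3 and 0.392 in WT for Egr1, and 0.0783 in Shank3 and 0.584 in WT for Arc. A ratio as high was found in 12 genes (0.141%) for Egr1 and in 19 genes (0.224%) for Arc. Fos had a ratio of 2.5, as high in 10.4% of genes, and Bdnf 1.01. WT replicates 1, 2 and 4 also held the lowest and the highest pair shares of the WT libraries, and their part in the wider spread was not tested.

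The balance of directions among low p-values was counted by strand class, and the difference between the classes was not tested. Among 5241 genes tested whose exons lie opposite an exon of another gene, 61 were higher and 24 lower in Shank3 at an unadjusted p under 0.05. Among 4822 genes with no gene opposite, 30 were higher and 60 lower. Together these were 85 genes (1.62%) in the first class and 90 (1.87%) in the second, beside 1.81% of all genes tested. The balance depended on the fit: with the 4822 genes scaled and fitted on their own, 53 were higher and 66 lower. The median log2 fold change was 0.0 over the genes opposite an exon, -0.055 over those with no gene opposite and 0.049 over the 1034 rows of the antisense type.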
